A study of Mus musculus with 36 samples.

Results

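AMP-activated protein kinase (AMPK) and the kinases that switch it on were represented by 9 genes, chosen by name, of the 56980 genes in a table of raw read counts from mouse brain. They were the catalytic subunit genes Prkaa1 and Prkaa2, the scaffold subunit genes Prkab1 and Prkab2, the regulatory subunit genes Prkag1 and Prkag2, the gene of the upstream kinase LKB1 (Stk11), and the genes of both calcium/calmodulin-dependent protein kinase kinases (Camkk1 and Camkk2). All 9 passed the filter on low counts, which left 25601 genes for testing. The remaining subunit gene, Prkag3, known mainly from fast-twitch muscle, held 0 to 27 counts per library and was not tested.

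The samples came from mice of 37 to 45 days of age that were labelled either Ndufs4 knockout (KO) or wild type (WT). Ndufs4 encodes an accessory subunit of mitochondrial complex I. Mice of both genotypes were gavaged for 3 days with CP2, a small molecule that inhibits complex I, or with vehicle. Titles also carry the letter F or M, so genotype, treatment and letter defined 8 groups: WT vehicle, WT CP2, KO vehicle and KO CP2, each in F and in M. Every group held 5 libraries except WT vehicle M and KO vehicle M, which held 3 each. No cell type limits the knockout in the labels, and neither strain nor litter is given. The series text names hippocampus and cortex, whereas each library is labelled brain, and how much of each region went into a library is not known.

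AMPK is a heterotrimer of a catalytic alpha, a scaffolding beta and a nucleotide-binding gamma subunit. It responds when AMP and ADP rise relative to ATP, and its activation loop must be phosphorylated, by LKB1 in most tissues or by CaMKK2 when cytosolic calcium rises. Once active it restrains lipid and protein synthesis and promotes glucose uptake, autophagy and mitochondrial turnover, and in neurons the CaMKK2 branch is prominent. These are changes of phosphorylation and nucleotide binding, so transcript counts measure the supply of the parts and not the activity of the kinase.

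The promoter stretches of Prkab1 and Camkk2 are shown because these were the 2 members whose transcripts differed most clearly between genotypes, in opposite directions. Both lie on chromosome 5 and on the minus strand. The sequences are the 250 bases before the annotated start, 5′ to 3′, from RefSeq on build GRCm38.p6, which is not the build of the deposited counts. Capitals mark CG dinucleotides.
Prkab1 (chr5:116024429-116024678): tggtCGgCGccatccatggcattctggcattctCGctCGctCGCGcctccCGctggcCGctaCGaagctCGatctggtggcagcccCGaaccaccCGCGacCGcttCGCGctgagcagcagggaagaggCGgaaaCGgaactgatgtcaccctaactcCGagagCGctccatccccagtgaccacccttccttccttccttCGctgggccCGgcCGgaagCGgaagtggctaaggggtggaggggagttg
Camkk2 (chr5:122779411-122779660): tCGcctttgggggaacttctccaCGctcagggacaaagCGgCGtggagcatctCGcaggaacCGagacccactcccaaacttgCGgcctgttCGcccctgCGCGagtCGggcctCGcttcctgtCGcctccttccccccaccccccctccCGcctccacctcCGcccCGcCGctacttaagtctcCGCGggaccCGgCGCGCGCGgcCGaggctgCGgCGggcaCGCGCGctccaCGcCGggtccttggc
The Prkab1 stretch held 24 CG dinucleotides and 65.6% G plus C, and the Camkk2 stretch held 32 and 72.4%. The 9 members had 11 promoters in the RefSeq table (windows of 250 bases before to 50 bases after the start), with a median of 69.7% G plus C against 52.7% over all 32851 promoters. Searched on both strands, the letters CCGGAAG occurred in 2 of the 11 (Prkab1 and Prkag1), against 8.86% of all promoters. CCAAT occurred in 6 of 11 against 37.4%, while TGACGTCA (1.79% of all promoters) and TATAAA (13.6%) occurred in 0. These letters were chosen after the members were known and are a description, since neither binding nor methylation was measured.

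Gene counts per library ran from 4.61e+07 to 8.86e+07, with a median of 5.475e+07, so that even the least abundant member, Prkab1, was counted 507 to 1179 times per library. Levels are given as CPM, counts divided by library size, with library sizes scaled by the trimmed mean of M-values (TMM). Ndufs4 transcripts were counted in the KO libraries at 27.4 to 39.1 CPM and in the WT libraries at 38.9 to 62.8 CPM. Ndufs4 fell in KO by 0.65 on the log2 scale with vehicle (SE 0.070, adjusted p = 3.8e-07, edgeR) and by 0.45 under CP2 (SE 0.060, adjusted p = 3.2e-06). Xist was at 439 to 797 CPM in the 20 F libraries and at or below 0.833 CPM in the M libraries except KO CP2 M L291, which held 47.3 CPM beside 80.8 CPM of the Y-linked Ddx3y. The library KO CP2 M L266 also stood apart in its group. Its counts differed from its group's by a mean chi-square of 98.9 to 143 per gene, against 21.8 to 49.5 among the others. The gene with the most counts over all libraries held 1.01% of its gene counts, against 4.79 to 5.87% in the others. Reads outside genes made up 5.18% of it, against 7.17% or more in the others. By correlation of log2 CPM L266 did not stand apart (r = 0.971 to 0.977 with it, 0.968 to 0.978 among the others). That top gene's share was also apart for L246 in KO vehicle F (3.20% against 0.96 to 1.70%) and L303 in WT vehicle M (1.60% against 3.26 and 3.90%). In KO vehicle F, L246 and L283 also differed by a chi-square of 99.95. No label gives a batch, and reads outside genes made up 5.09% to 13.2% of a library, from 5.09 to 7.04% in WT vehicle F to 11.3 to 13.0% in KO vehicle M. Every gene in the marker lists of 11 cell types and regions was counted in at least 1 library, which does not show detection in each library. This held for neurons and astrocytes as well as for striatum, choroid plexus and red cells. The labels do not say whether 1 library is 1 mouse, and p-values measure the spread between these libraries.

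The upstream kinases had the highest transcript levels per length of exon and the beta1 gene the lowest. On the scale of CPM per kilobase of annotated exon, over all 36 libraries, the mean was 31.7 ± 3.78 (SD) for Camkk1, 18.5 ± 5.48 for Camkk2 and 16.7 ± 1.19 for Stk11. The subunit genes followed with 12.3 ± 0.821 for Prkag1, 11.4 ± 1.55 for Prkag2, 7.92 ± 0.786 for Prkaa1, 7.19 ± 0.742 for Prkab2, 5.89 ± 0.545 for Prkaa2 and 4.59 ± 0.847 for Prkab1. Neighbours that held their order were Stk11 over Prkag1 in 36 of 36 libraries, Camkk1 over Camkk2 in 35, and both Prkag2 over Prkaa1 and Prkab2 over Prkaa2 in 34. Camkk2 exceeded Stk11 in 23 libraries only, Prkaa1 exceeded Prkab2 in 26 and Prkag1 exceeded Prkag2 in 29, so these neighbours did not separate beyond their spread. The order rests on annotated exon length, which is the same in every library, so agreement between libraries does not test it. Camkk2 has 10921 such bases and Camkk1 3728, and in CPM Camkk2 was the higher (means of 202 and 118). How much of each annotated length was transcribed was not tested.

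Members also differed in how steady they were among libraries of a group. The pooled within-group SD of log2 CPM was 0.34 for Camkk2, above 79.6% of the 15420 genes with a mean of at least 1 CPM, whose median was 0.18. Stk11, with 0.084, was steadier than all but 4.47% of those genes, and Prkag1, with 0.10, than all but 10.8%. The other members lay between 0.12 for Prkaa1 and 0.20 for Prkab1.

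**Figure D1:**
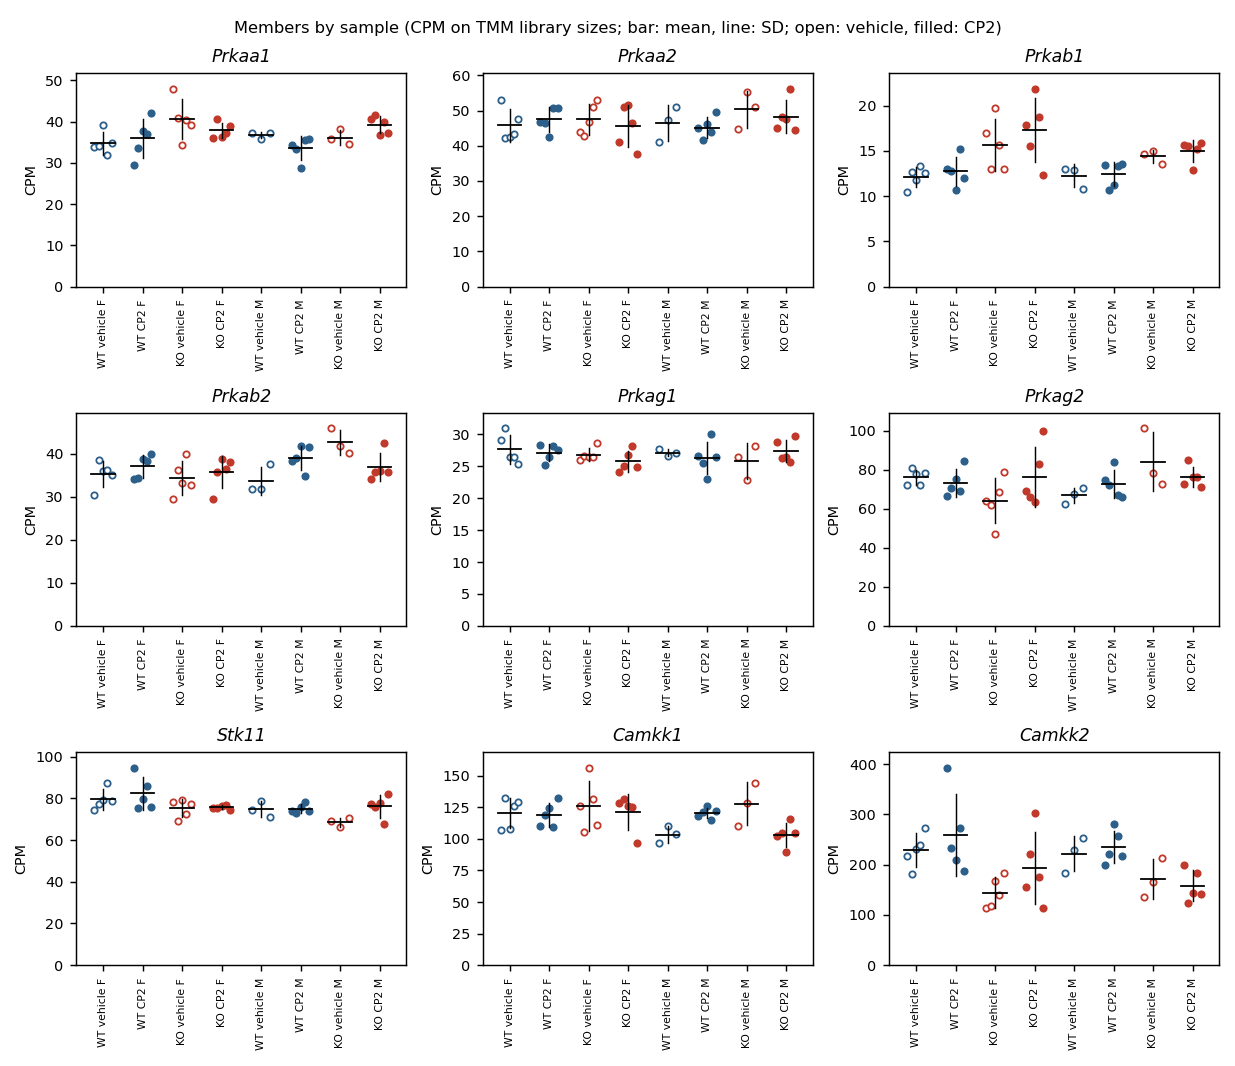
CPM (y axis, linear) of each of the 9 members in every library, by group (x axis), with open circles for vehicle, filled circles for CP2, blue for WT and red for KO. Bars mark group means and vertical lines 1 SD. Prkab1 points of KO groups sit mostly above those of WT groups, with means of 14.4 to 17.3 against 12.1 to 12.7 CPM, and Camkk2 points mostly below, with means of 144 to 194 against 222 to 260 CPM.

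Calls between genotypes are given beside the share of all genes called. With vehicle, averaged over F and M, 0 of 9 members passed an adjusted p of 0.05 in edgeR's quasi-likelihood test, where 6.67% of all tested genes did. At an unadjusted p below 0.05 there were 5 of 9, against 21.6% of all genes. Under CP2, 2 of 9 passed (Prkab1 higher, Camkk2 lower) where 11.6% of all genes did, and 3 of 9 had an unadjusted p below 0.05 against 24.9%. Averaging the genotype difference over both treatments, a contrast added after the results of the separate contrasts were seen, called 3 of 9 members against 16.2% of all genes. In that contrast 2 were higher (Prkab1 and Prkaa1; 7.62% of all genes were called higher) and 1 was lower (Camkk2; 8.61%), and 4 of 9 had an unadjusted p below 0.05 against 28.8%. The median log2 fold change of the members was 0.084 with vehicle, -0.0078 under CP2 and 0.045 in the combined contrast, beside 0.022, 0.012 and 0.019 over all tested genes. With 3 or fewer members called, these shares rest on 1 to 3 genes each.

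Among the catalytic subunits, Prkaa1, which encodes the more widely expressed alpha1, had the only call. Its libraries with vehicle read 31.8, 33.8, 34.1, 34.7 and 39.2 CPM in WT F and 34.4, 39.1, 40.3, 40.9 and 47.9 CPM in KO F. In M with vehicle they read 35.8, 37.2 and 37.2 CPM in WT and 34.5, 35.7 and 38.2 CPM in KO. The upper 3 KO F values lay above the whole WT range, whereas in M the KO values straddled the WT values. Under CP2 the F values were 29.4, 33.6, 36.9, 37.7 and 42.0 CPM in WT and 36.1, 36.3, 37.3, 39.0 and 40.6 CPM in KO, which overlapped. In M under CP2 they were 28.7, 33.4, 34.3, 35.6 and 35.7 CPM in WT and 36.8, 37.3, 39.8, 40.6 and 41.6 CPM in KO, with no overlap. The combined genotype difference was 0.12 on the log2 scale (SE 0.044, 1.09-fold, adjusted p = 0.045, edgeR). It was not called with vehicle (0.10, adjusted p = 0.410) or under CP2 (0.15, adjusted p = 0.081). The combined call was lost without 16 of the 36 libraries, taken singly, named under the processing alternatives.

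Prkaa2, which encodes the alpha2 isoform enriched in muscle and neurons, ranged from 37.8 to 56.1 CPM over all libraries. Its group means ran only from 45.2 ± 2.93 CPM (SD, n = 5) in WT CP2 M to 50.3 ± 5.29 CPM (n = 3) in KO vehicle M. The genotype difference was 0.08 with vehicle (95% interval -0.05 to 0.22, adjusted p = 0.532) and 0.02 under CP2 (-0.10 to 0.14, adjusted p = 0.902, edgeR).

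Prkab1, the gene of the beta1 scaffold, was higher in KO brains. With vehicle, the WT F libraries read 10.4, 11.8, 12.5, 12.7 and 13.3 CPM and the KO F libraries 13.0, 13.0, 15.7, 17.0 and 19.7 CPM. The WT M libraries read 10.8, 12.9 and 13.0 CPM and the KO M libraries 13.6, 14.6 and 14.95 CPM. Only the highest WT F value reached into the KO F range, and in M the genotypes did not overlap. Under CP2 the WT F libraries read 10.7, 12.01, 12.7, 13.0 and 15.2 CPM and the KO F libraries 12.4, 15.6, 17.8, 18.8 and 21.8 CPM. The WT M libraries read 10.7, 11.2, 13.3, 13.4 and 13.6 CPM and the KO M libraries 12.9, 15.2, 15.6, 15.6 and 15.8 CPM. One KO library in F and 1 in M fell inside the WT range, and the other KO libraries lay above it. Group means under CP2 were 12.7 ± 1.64 (WT F), 17.3 ± 3.55 (KO F), 12.4 ± 1.36 (WT M) and 15.03 ± 1.22 CPM (KO M; SD, n = 5 each).

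Prkab1 rose in KO under CP2 by 0.36 on the log2 scale (SE 0.086, 1.28-fold, adjusted p = 0.0044, edgeR). With vehicle the difference was 0.30 (SE 0.10, 1.23-fold) and missed the threshold (adjusted p = 0.060). The combined difference was 0.33 (SE 0.066, 1.255-fold, adjusted p = 0.00045). The CP2 call stood in all 33 alternatives run and the combined call in all 49, with combined values of 0.30 to 0.36. Without KO CP2 M L266 and L291 the CP2 difference was 0.34 (adjusted p = 0.018, edgeR). By letter, the CP2 difference was 0.44 in F (adjusted p = 0.046, where 2.0% of genes were called) and 0.27 in M (adjusted p = 0.158, where 9.99% were). The F call was lost without each of L201, L216, L227 and L233 among the KO and L228, L240, L257 and L311 among the WT libraries of those F groups.

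Prkab2, the gene of beta2, ranged from 29.4 to 45.9 CPM and was not called for genotype. Its highest group was KO vehicle M at 42.6 ± 2.92 CPM (SD, n = 3; lowest library 40.2), above all 3 WT vehicle M libraries (31.7 to 37.5 CPM). That difference was 0.34 on the log2 scale (adjusted p = 0.135, edgeR), and in vehicle F it was -0.04 (adjusted p = 0.845). Under CP2 the averaged difference was -0.07 (95% interval -0.19 to 0.05, adjusted p = 0.512).

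Of the gamma subunits, Prkag1 encodes the widely expressed gamma1 and Prkag2 the gamma2 isoform, in which mutations cause a glycogen-storage heart disease. Prkag1 was nearly level, from 22.8 to 31.0 CPM over all libraries, with genotype differences of -0.06 with vehicle (95% interval -0.18 to 0.06) and -0.01 under CP2 (-0.11 to 0.09). Prkag2 ranged more widely, from 47.3 CPM in a KO vehicle F library to 101.3 CPM in a KO vehicle M library. With vehicle, its genotype difference was -0.25 in F (adjusted p = 0.185) and 0.33 in M (adjusted p = 0.301, edgeR). The difference between these was -0.58 (SE 0.18) and was not called (adjusted p = 0.252), and the smallest adjusted p of all 9 members in that F minus M contrast was this one, where 0.102% of all genes were called. Under CP2 the corresponding values were 0.06 and 0.07, near each other.

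Stk11 encodes LKB1, the master upstream kinase that also activates the AMPK-related kinases. It ranged from 66.3 to 94.8 CPM over all libraries. In M with vehicle the KO libraries (66.3 to 70.4 CPM) lay below the WT libraries (71.2 to 78.8 CPM), and in F they overlapped (69.3 to 79.1 against 74.5 to 87.6 CPM). The genotype difference was -0.10 with vehicle (SE 0.049, adjusted p = 0.218), -0.05 under CP2 (adjusted p = 0.53) and -0.08 combined (SE 0.033, adjusted p = 0.111, edgeR).

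Camkk2, whose product is the calcium-dependent kinase of AMPK, was lower in KO brains and varied most between libraries. With vehicle, the WT F libraries read 181.3, 218.1, 232.0, 239.8 and 273.6 CPM and the KO F libraries 113.7, 117.2, 140.3, 166.7 and 183.1 CPM. The WT M libraries read 184.4, 228.6 and 252.9 CPM and the KO M libraries 135.2, 165.1 and 213.8 CPM. In F, 4 of 5 KO values lay below every WT value, and in M 2 of 3 did. Under CP2 the WT F libraries read 187.8, 209.4, 234.02, 273.0 and 393.3 CPM and the KO F libraries 114.6, 155.4, 175.1, 220.6 and 303.03 CPM. The WT M libraries read 200.3, 216.5, 221.9, 258.0 and 280.1 CPM and the KO M libraries 124.5, 140.8, 144.4, 183.1 and 199.8 CPM. The M groups did not overlap, whereas in F the highest KO library, L227, exceeded 4 of the 5 WT libraries and the highest WT library, L228, stood far above the rest.

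Camkk2 fell in KO by 0.51 on the log2 scale in the combined contrast (SE 0.12, 0.703 times the WT level, adjusted p = 0.0025, edgeR), a call that stood in all 49 alternatives. Under CP2 it fell by 0.50 (SE 0.15, 0.709 times, adjusted p = 0.030). With vehicle the difference had nearly the same size, -0.52 (SE 0.17), and missed the threshold (adjusted p = 0.068). The CP2 call was lost without any 1 of KO CP2 F L201 and L234, WT CP2 F L228, KO CP2 M L291, L292 and L299, and WT CP2 M L263, with values of -0.60 to -0.40 over all 20 single omissions. Without both KO CP2 M L266 and L291 it was -0.50 (adjusted p = 0.054). By letter, the values were -0.67 (vehicle F), -0.37 (vehicle M), -0.42 (CP2 F) and -0.57 (CP2 M), with adjusted p of 0.065, 0.654, 0.339 and 0.091. The lower 95% bounds of these 4 values ran from -1.09 to -0.84.

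Camkk1 encodes the other CaMKK, better known for activating CaMKI, CaMKIV and Akt. With vehicle it read 107.1, 108.0, 126.4, 129.3 and 132.2 CPM in WT F and 105.2, 111.5, 125.7, 131.5 and 156.5 CPM in KO F. In M with vehicle it read 96.5, 103.7 and 110.0 CPM in WT and 110.7, 128.8 and 144.6 CPM in KO, which did not overlap. The F groups overlapped, with 1 KO library above the highest WT library, and the M groups were apart. Under CP2 it read 109.7, 110.0, 119.0, 124.9 and 132.1 CPM in WT F and 96.6, 125.1, 125.8, 128.2 and 131.9 CPM in KO F. In M under CP2 it read 114.8, 118.5, 121.0, 122.5 and 126.1 CPM in WT and 89.3, 102.6, 104.3, 104.9 and 115.9 CPM in KO. There the order of genotypes was the reverse of that with vehicle, with 1 KO library inside the WT range. The averaged genotype difference was 0.19 with vehicle (adjusted p = 0.116), -0.10 under CP2 (adjusted p = 0.370) and 0.04 combined (adjusted p = 0.602, edgeR).

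**Figure D2:**
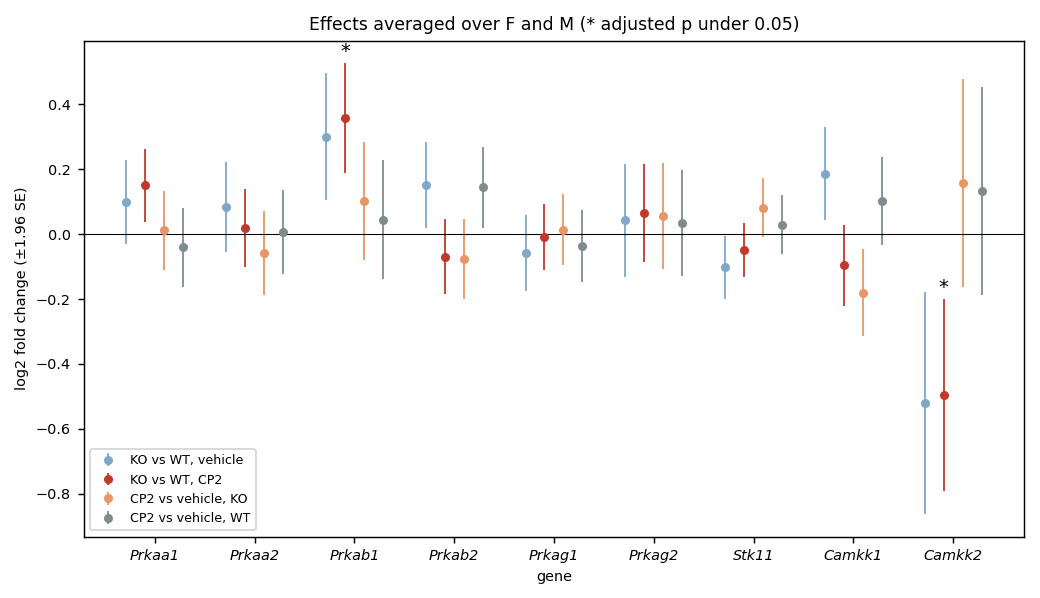
Log2 fold change (y axis) of each member (x axis) in the 4 contrasts averaged over F and M, with 95% intervals as lines, and a star where the adjusted p was below 0.05. The stars fall on Prkab1 (0.36) and Camkk2 (-0.50) for KO against WT under CP2 and nowhere else among these contrasts.

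The genotypes of a letter were also compared by whether their libraries overlapped at all. In M with vehicle, 5 of 9 members did not overlap (Prkab1, Prkab2, Prkag2 and Camkk1 higher in KO, Stk11 lower), where 20.9% of all genes did not. There 0 of 9 were called against 0.516% of genes, and 3 of 9 had an unadjusted p below 0.05 against 12.2% (edgeR). In M under CP2, 2 of 9 did not overlap (Prkaa1 higher, Camkk2 lower) against 11.1% of genes. In F, 0 of 9 were without overlap with vehicle and 0 of 9 under CP2, against 4.7% and 3.02% of genes. With vehicle in F, 0 of 9 were called where 4.96% of genes were. At an unadjusted p below 0.05 there were 4 of 9, against 20.3% of genes (edgeR).

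CP2 against vehicle gave no call among the members. In WT, 0 of 9 members and 0% of all genes were called in edgeR for the average, for F, for M and for the F minus M difference, while 1 of 9 members had an unadjusted p below 0.05 in the average against 4.03% of genes. The member values in WT ran from -0.04 (Prkaa1) to 0.14 (Prkab2) on the log2 scale, with 95% bounds between -0.19 and 0.45. In KO, 0 of 9 were called where 3.91% of genes were (1 of 9 at an unadjusted p below 0.05, against 18.1%), and values ran from -0.18 (Camkk1, adjusted p = 0.128) to 0.16 (Camkk2, adjusted p = 0.672), with bounds between -0.31 and 0.48. In the KO F and KO M groups taken separately 0 of 9 were called, against 0.0859% and 5.1% of genes. In KO F, 1 of 9 had an unadjusted p below 0.05, against 2827 of all 25601 genes. In KO M, 3 of 9 had one, against 4977 of all 25601 genes (edgeR). Libraries with and without CP2 did not overlap for 0 of 9 members in KO F, KO M and WT F, against 1.04%, 15.3% and 0.605% of genes. In WT M they did not overlap for 2 of 9 (Prkaa1 lower, Camkk1 higher) against 4.54% of genes.

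Whether the genotype difference itself shifted with CP2 was tested as an interaction. Averaged over F and M, 0 of 9 members were called against 0.715% of genes, and 2 of 9 had an unadjusted p below 0.05 (Prkab2 and Camkk1) against 14.6%. For Prkab1 the interaction was 0.06 (95% interval -0.20 to 0.32) and for Camkk2 0.02 (-0.43 to 0.47), and the test resolves no shift inside those intervals. In F, 0 of 9 members and 0% of genes were called, and 0 of 9 had an unadjusted p below 0.05 against 5.77%. In M, 1 of 9 members was called where 1.98% of genes were: Camkk1, at -0.53 (SE 0.15, adjusted p = 0.046, edgeR), the reversal of order described above. The call was lost without any 1 of 13 of the 16 M libraries and kept without KO CP2 M L298, KO vehicle M L310 or WT CP2 M L267. It was also lost without both KO CP2 M L266 and L291 (-0.52, adjusted p = 0.118) and with the percentage of reads outside genes as covariate (-0.32, adjusted p = 0.637) or the score of hippocampal CA markers as covariate (-0.33, adjusted p = 0.411). The percentage of reads outside genes was 11.3 to 13.0% in KO vehicle M and 5.18 to 9.07% in KO CP2 M, and its part in the result was not tested in any other way.

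No member was called between F and M libraries. Averaged over the 4 combinations of genotype and treatment, 0 of 9 were called where 10.3% of genes were, and the smallest adjusted p was 0.079, for Stk11 (0.09 higher in F). The F minus M difference of the genotype effect was called for 0 of 9 under CP2 (0.82% of genes) and that of the CP2 effect in KO for 0 of 9 (0.691%).

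Because a kinase complex depends on which isoforms are present, the counts of sister genes were also compared within each library, as the log2 ratio of 1 to the other. Per length of exon the mean ratio over libraries was 0.750 for Prkaa2 to Prkaa1, 1.62 for Prkab2 to Prkab1, 0.926 for Prkag2 to Prkag1 and 0.590 for Camkk2 to Camkk1. Differences were tested by exact two-sided permutation within F and M, with Benjamini-Hochberg adjustment over 48 tests, of which 2 passed. The ratio of Camkk2 to Camkk1 averaged 0.92 ± 0.27 (SD, n = 5) in WT and 0.18 ± 0.32 (n = 5) in KO in vehicle F. In vehicle M it averaged 1.09 ± 0.18 in WT and 0.40 ± 0.14 in KO (n = 3 each), all on the log2 scale of counts. The averaged difference was -0.71 (exact permutation p = 0.00079, adjusted p = 0.038). Under CP2 it was -0.41 (exact permutation p = 0.020, adjusted p = 0.192). The ratio of Prkab2 to Prkab1 averaged 1.55 ± 0.23 in WT and 1.07 ± 0.36 in KO in CP2 F, and 1.65 ± 0.22 and 1.29 ± 0.17 in CP2 M (n = 5 each). Its averaged difference under CP2 was -0.42 (exact permutation p = 0.0020, adjusted p = 0.048), a call lost without any 1 of 16 of the 20 libraries and kept without KO CP2 F L234, KO CP2 M L292 or L298, or WT CP2 M L267. With vehicle it was -0.14 (exact permutation p = 0.271, adjusted p = 0.540), from -0.40 in F and 0.11 in M. For the alpha and the gamma pair, none of these tests gave an adjusted p below 0.05.

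**Figure D3:**
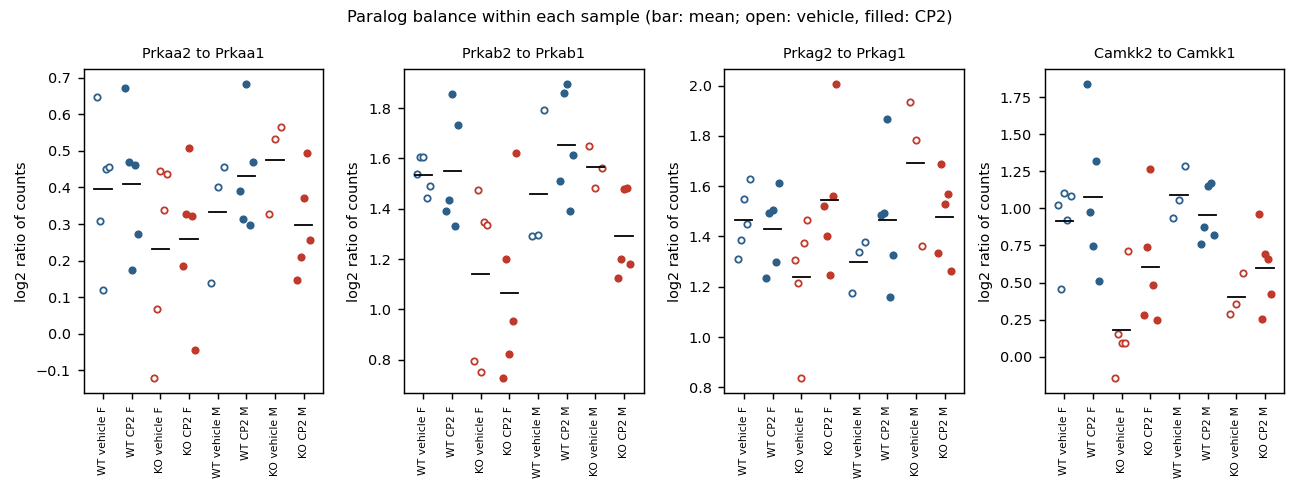
Log2 ratio of counts (y axis) of 4 pairs of sister genes in every library, by group (x axis), with group means as bars, blue for WT and red for KO. In the Camkk2 to Camkk1 panel the KO vehicle means (0.18 and 0.40) lie below the WT vehicle means (0.92 and 1.09), and in the Prkab2 to Prkab1 panel the KO CP2 means (1.07 and 1.29) below the WT CP2 means (1.55 and 1.65).

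Camkk2 varied in step with Camk2n1 and with neuron markers. Likeness was measured as the correlation of log2 CPM over the 36 libraries, after each group's mean was subtracted, against 15242 genes, and is a description of a chosen best match. Among the 2 genes most like Camkk2 was Camk2n1, which encodes an inhibitor of CaMKII (r = 0.93, Spearman rho = 0.93, r = 0.91 without the 2 farthest libraries). Camk2n1 fell in KO by 0.29 in the combined contrast (adjusted p = 0.018, edgeR). The mean log2 CPM of 5 neuron markers also followed Camkk2 within groups (r = 0.79, rho = 0.80). So did that of striatal neuron markers (r = 0.64). Markers of hippocampal CA (r = -0.47), dentate gyrus (-0.48, but -0.17 without the 2 farthest libraries), astrocytes (-0.49) and endothelium (-0.40) went the other way. The remaining lists lay between -0.17 (choroid plexus) and 0.11 (microglia).

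None of these 5 neuron markers was called between genotypes with vehicle, under CP2 or combined, with 1, 0 and 1 of them at an unadjusted p below 0.05. Their median log2 fold change was 0.08, 0.005 and 0.03. Their summed level ran from 4277 to 5059 CPM in WT vehicle F and 3475 to 4651 in KO vehicle F, and from 3856 to 4203 in WT vehicle M and 4812 to 4987 in KO vehicle M. Under CP2 it ran from 4407 to 5358 CPM in WT F, 4020 to 5667 in KO F, 4049 to 4513 in WT M and 4029 to 4994 in KO M. With the neuron score as a covariate, an alternative added after seeing the data, the Camkk2 difference was -0.60 with vehicle (adjusted p = 0.00056), -0.58 under CP2 (adjusted p = 5e-05) and -0.59 combined (adjusted p = 5.9e-07, edgeR). Prkab1 under CP2 was then 0.33 (adjusted p = 0.0038). In bulk tissue, fewer cells of a type and less RNA per cell cannot be told apart.

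**Figure D4:**
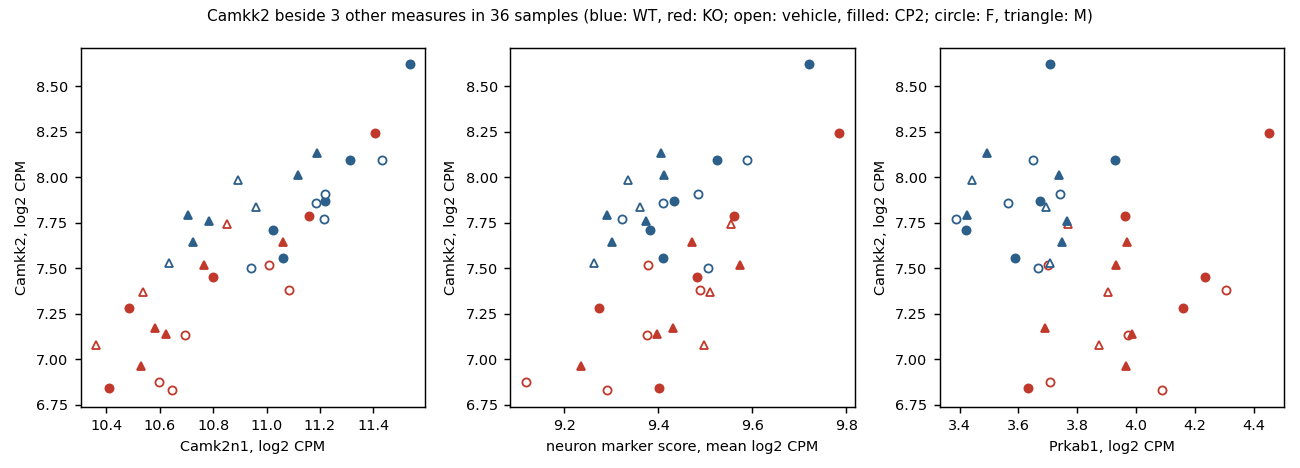
Log2 CPM of Camkk2 (y axis) against log2 CPM of Camk2n1, the mean log2 CPM of 5 neuron markers and log2 CPM of Prkab1 (x axes), 1 point per library, blue for WT, red for KO, open for vehicle, filled for CP2, circles for F and triangles for M. Camkk2 climbs with Camk2n1 (r = 0.93 within groups) and, with more scatter, with the neuron markers (r = 0.79).

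The other members had looser matches. The nearest genes were Bend7 (r = 0.77) and Slc6a5 (0.76), the glycine transporter of inhibitory terminals, for Prkaa1, and Cyfip2 (0.82) and Tshz3 (0.81) for Prkaa2. For the beta genes they were Larp6 (0.74) and Nhlrc3 (0.73) for Prkab1 and Gng2 (0.70) and Amph (0.68) for Prkab2. For the gamma genes they were Babam1 (0.63) and Atp5g2 (0.61) for Prkag1 and Nhsl1 (0.82) and Tsga10 (0.81) for Prkag2. Stk11 was nearest to Ramp1 (0.77) and Dnlz (0.74), and Tma16 (0.80) was among the 2 nearest to Camkk1. Of these, Nhlrc3 rose in KO beside Prkab1 in the combined contrast (0.35, adjusted p = 0.0011, edgeR), and Larp6 also rose (0.16, adjusted p = 0.028). Tsga10 fell by 0.67 (adjusted p = 8.3e-08) while the Prkag2 difference was 0.05 (adjusted p = 0.609).

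The members did not vary as 1 block. Of the 36 pairs of members, the highest within-group correlation was 0.54, between Prkaa2 and Camkk2 (0.55 without the 2 farthest libraries), and the lowest was -0.55, between Prkab1 and Prkag2 (-0.33 without them). The sister pairs gave 0.00 for Prkaa1 and Prkaa2, -0.10 for Prkab1 and Prkab2, -0.10 for Prkag1 and Prkag2, and 0.27 for Camkk1 and Camkk2. With astrocyte markers (5 genes) Camkk1 gave r = -0.73 and Prkag2 r = 0.65. In that list 1 of 5 genes was called under CP2, Gfap, which rose by 1.28 on the log2 scale in KO (adjusted p = 0.0042, edgeR), and the summed level was 1762 to 3009 CPM in KO CP2 M against 1211 to 1533 CPM in WT CP2 M. In the other groups the genotypes overlapped, at 1329 to 2877 CPM in KO and 1353 to 1593 CPM in WT in CP2 F, 1114 to 3009 and 1346 to 1521 CPM in vehicle M, and 1184 to 1911 and 1372 to 1899 CPM in vehicle F. The part of these cell markers in the Camkk1 values was not tested. Prkab1 gave r = -0.43 with astrocyte and -0.41 with dentate gyrus markers within groups. With neuron, interneuron and striatal neuron markers it gave 0.44, 0.42 and 0.49. The remaining lists lay between -0.09 (endothelium) and 0.15 (red cells). Apart from the neuron and hippocampal CA scores as covariates, the part of these lists in the Prkab1 values was not tested.

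The 5 lists of related genes, 42 in all and all tested, described the rest of the pathway. With vehicle, 2 of 42 were called between genotypes (4.76%, both higher), under CP2 4 of 42 (9.52%, 1 higher and 3 lower) and in the combined contrast 8 of 42 (19.05%, 3 higher and 5 lower), next to the shares of all genes given above. Their median log2 fold change was 0.002, -0.04 and -0.02. CP2 against vehicle called 2 of 42 in KO (3.91% of all genes) and 0 of 42 in WT (0%). In WT 3 of 42 had an unadjusted p below 0.05, against 4.03% of all genes. The averaged interaction called 0 of 42 against 0.715%, with 8 of 42 at an unadjusted p below 0.05 against 14.6% (edgeR). The interaction in M called 3 of 42 (7.14%, all lower), Pfkfb2, Ppm1e and Mark3, against 1.98% of all genes. Ppm1e and Mark3 were named after their values were seen.

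Of 4 genes for partners in the LKB1 complex, 0 were called in these contrasts averaged over F and M, with at most 1 at an unadjusted p below 0.05 in any of them. Of 8 other regulators of AMPK, Fnip1, a partner of folliculin that binds AMPK, rose in KO with vehicle by 0.23 (SE 0.058, adjusted p = 0.014, edgeR). That call was lost without KO vehicle M L322 or WT vehicle M L285. Map3k7, which encodes TAK1, a kinase also reported upstream of AMPK, rose in KO under CP2 by 0.17 (SE 0.044, adjusted p = 0.0092). Its libraries ran from 60.8 to 67.9 CPM in WT F and 68.2 to 78.3 CPM in KO F under CP2, without overlap, and from 60.9 to 73.2 and 69.9 to 77.2 CPM in M, with overlap. Lamtor1, a lysosomal anchor for AMPK activation, rose with CP2 in KO by 0.19 (SE 0.054, adjusted p = 0.034), a call lost in 17 of 31 alternatives.

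Of 12 AMPK-related kinases that LKB1 activates, Sik2, a salt-inducible kinase that restrains CREB coactivators, was called lower in KO under CP2. Under CP2 its WT F libraries ran from 20.5 to 33.4 CPM (median 23.6) and its KO F libraries from 14.8 to 18.7 CPM (17.1), and in M they ran from 22.8 to 37.7 (33.1) and from 16.6 to 23.5 CPM (22.6). The F groups did not overlap, and in M the KO maximum lay above the WT minimum. Sik2 fell in KO under CP2 by 0.58 (SE 0.096, adjusted p = 7.65e-05, edgeR), with like values in F (-0.61) and M (-0.55). With vehicle its difference was -0.07 (adjusted p = 0.752), and the interaction was -0.51 (adjusted p = 0.083). In the combined contrast Snrk fell by 0.15 (adjusted p = 0.018) and Mark4 rose by 0.11 (adjusted p = 0.037). The Snrk call was lost without KO vehicle M L322 and the Mark4 call in 10 of 49 alternatives.

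Of 4 other kinases that CaMKKs activate, Camk1g, which encodes CaMKI gamma, fell in KO under CP2 by 0.41 (SE 0.078, adjusted p = 0.0004, edgeR). Its KO CP2 M libraries ran from 18.5 to 25.1 CPM, below the 27.9 to 39.7 CPM of WT CP2 M, while the F groups overlapped (24.5 to 30.9 and 24.1 to 37.8 CPM). With vehicle its difference was -0.21 (adjusted p = 0.164), and combined it fell by 0.31 (adjusted p = 0.00028).

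Of 14 genes for AMPK substrates, both called under genotype within a treatment encode enzymes that set the level of fructose 2,6-bisphosphate, the activator of glycolysis. Pfkfb3 fell in KO under CP2 by 0.38 (SE 0.079, adjusted p = 0.0010). Its libraries under CP2 held 25.6 to 35.1 CPM in KO F against 34.5 to 46.6 CPM in WT F, and 29.9 to 34.2 CPM in KO M against 36.7 to 48.3 CPM in WT M, so that only the F groups overlapped. Pfkfb2 rose in KO with vehicle by 0.27 (SE 0.085, adjusted p = 0.044) and fell with CP2 in KO by 0.31 (SE 0.079, adjusted p = 0.018, edgeR). Its KO vehicle M libraries stood at 32.1 to 33.5 CPM and its KO CP2 M libraries at 22.05 to 24.2 CPM, and in F the corresponding ranges overlapped (22.8 to 29.7 and 18.8 to 33.6 CPM). Without KO vehicle M L322 both Pfkfb2 calls were lost. The vehicle call was lost in 15 of 29 alternatives and the other in 6 of 31. Foxo3, a transcription factor, fell in the combined contrast by 0.13 (adjusted p = 0.035), a call lost in 21 of 49 alternatives. Between F and M, 4 of 42 were called (9.52%, against 10.3% of all genes): Lamtor1 (0.14) and Brsk1 (0.11) higher in F, Tsc2 (-0.13) and Pfkfb2 (-0.20) lower.

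**Figure D5:**
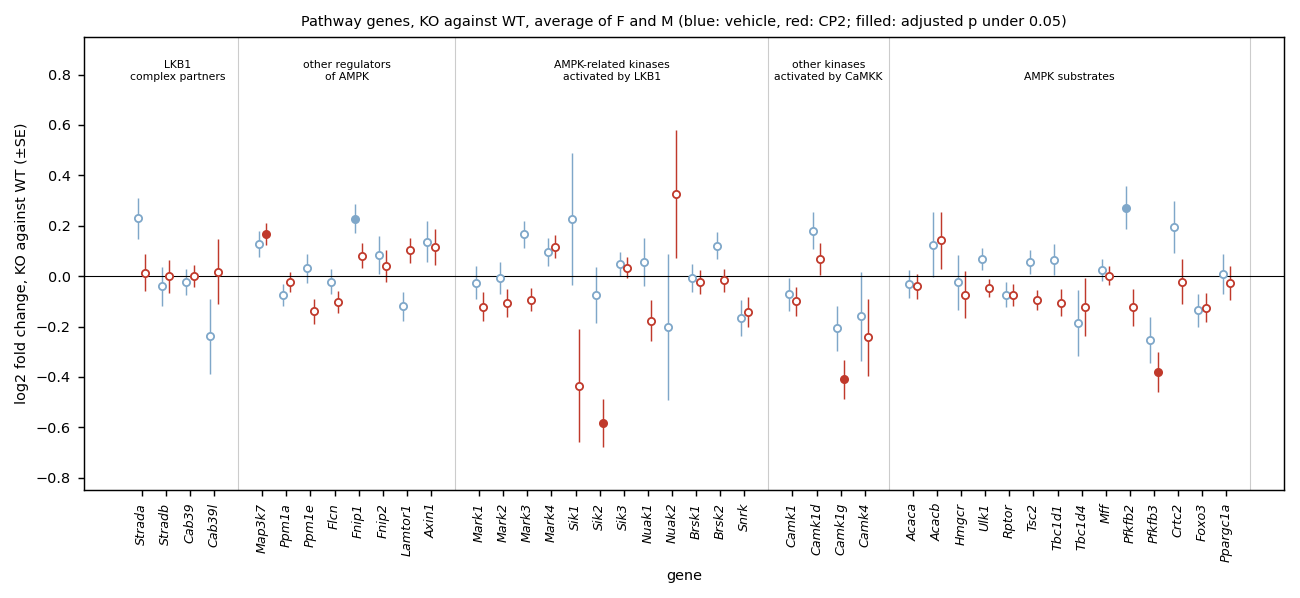
Log2 fold change of KO against WT (y axis) with SE for the 42 pathway genes (x axis), grouped by list, blue with vehicle and red under CP2, filled where the adjusted p was below 0.05. The filled points are Fnip1 (0.23) and Pfkfb2 (0.27) with vehicle, and Map3k7 (0.17), Sik2 (-0.58), Camk1g (-0.41) and Pfkfb3 (-0.38) under CP2.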

How the data were processed

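PolyA RNA of 36 mouse brain libraries was sequenced by the authors. The deposited table holds raw counts per Ensembl gene in 56985 rows, of which the last 5, the counter's summary rows, were left out. They made up 11.96% to 19.6% of a library. STAR, HTSeq and GRCm39 are named in the submitters' processing notes, without versions, and strand handling is not given in the sources used here, so overlapping genes and near-identical copies remain uncertain. Groups came from the labels and title letters. GENCODE M21 names gave symbols to 52073 of 56980 gene IDs and exon lengths.

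Counts were fitted with edgeR 4.0.16 in R 4.3.3 (TMM scaling, filterByExpr over 8 groups, quasi-likelihood with robust dispersion, 1 coefficient per group, all 36 libraries). P-values were adjusted by Benjamini-Hochberg over 25601 genes within each contrast, and called below 0.05. SE is the log2 fold change over the root of F. CPM, and log2 CPM with a prior count of 2, used TMM library sizes. Ratios of counts had 0.5 added to both genes. The fit was tested on simulated data for KO against WT with vehicle averaged over F and M (25601 genes simulated, 24785 tested): 100% of genes changed 2-fold and 52% of those changed 1.25-fold were called, with 5 unchanged genes called. For F alone these shares were 95% and 34%, and for M alone 91% and 15%.

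The members and all lists were chosen with earlier results of these data known. Named were the members, Prkag3, Ndufs4, pathway genes called in an averaged contrast (at most 4 per list and contrast) and the 2 genes most like each member. Of the latter, 2 are not reported here. Alternatives were DESeq2 1.42.0, other scaling factors and filters, covariates and single omissions. All p-values measure spread between libraries, and no pairing or batch was given.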

Additional observations from a re-analysis of the deposited data

Results flagged for a closer look

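In 4 groups of 5 libraries, 1 library lay far from the others for a member, by the gap to its nearest neighbour over the group's range. Prkab1 in KO CP2 M L292 read 12.87 CPM, against 15.22 for the next and 15.82 CPM for the highest (gap over range 0.797). Prkab2 in KO CP2 M L298 read 42.56 CPM, against 35.9 for the next and 34.08 CPM for the lowest (0.786). Prkag1 in KO vehicle F L283 read 28.6 CPM, against 26.68 and 25.92 CPM (0.718). Camkk1 in KO CP2 F L234 read 96.61 CPM, against 125.1 for the next and 131.9 CPM for the highest (0.807). Of 54 member groups examined these were 4, where chance gives about 1 in 20.

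The genotype difference shifted with CP2 in the M groups for Camkk1 (interaction -0.5299, adjusted p = 0.0464, edgeR), described with its values above, and for 3 of the 42 pathway genes, all lower. These were Pfkfb2 (-0.6118, adjusted p = 0.0471), Ppm1e, a protein phosphatase (-0.4674, adjusted p = 0.0267), and Mark3, a kinase of microtubule-associated proteins (-0.3861, adjusted p = 0.049). The call was lost in 18 of 28 alternatives for Pfkfb2, in 10 of 28 for Ppm1e and in 18 of 28 for Mark3, each also without KO vehicle M L322 alone.

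The F and M differences themselves differed for 2 pathway genes. For Ppm1e the KO against WT difference with vehicle was -0.27 in F and 0.34 in M, and F minus M was -0.6092 (adjusted p = 0.0163, edgeR), a call lost in 8 of 28 alternatives. Its vehicle libraries held 184.8 to 233.8 CPM in KO F against 243.5 to 307.0 CPM in WT F, and 271.4 to 289.3 CPM in KO M against 213.8 to 236.7 CPM in WT M, without overlap in either. For Acacb, a mitochondrial acetyl-CoA carboxylase, the CP2 against vehicle difference in KO was -0.50 in F and 0.49 in M, and F minus M was -0.9888 (adjusted p = 0.0473, edgeR), a call lost in 19 of 30 alternatives. Without any 1 of 12 libraries the Acacb call was lost, KO vehicle M L322 among them. Ppm1e, Mark3 and Acacb were named after their values were seen.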

How the results depend on the processing

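No paired analysis was possible because no replicate number is shared between groups. Over 153 member results, 4473 alternative values were compared with the main ones. Where the main or the alternative value was called, 0 were reversed, while 60 lost a call and 54 gained one. Most values were uncalled in both. Among those, the sign changed in 173, and 60 moved by the main SE or more. The Prkab1 calls under CP2 and combined, and the combined Camkk2 call, stood in all alternatives run, as did the vehicle ratio of Camkk2 to Camkk1. With vehicle, where 0 members were called, 1 was called with relative log expression or upper quartile scaling, a CPM filter, only the contrast's groups, or the hippocampal CA or neuron score as a covariate, and 2 with an additive letter or DESeq2. These were Prkab1 at 0.32 (relative log expression), 0.34 (upper quartile), 0.32 (CPM filter), 0.32 (additive) and 0.32 (DESeq2), and Camkk2 at -0.52 (contrast's groups), -0.50 (CA score), -0.55 (additive), -0.60 (neuron score) and -0.50 (DESeq2). Under CP2, 1 member in place of 2 was called with no filter, only the contrast's groups, or without both KO CP2 M L266 and L291, as Camkk2 stood at -0.49, -0.49 and -0.50 (adjusted p 0.0503, 0.0623 and 0.0539). CP2 in KO called 1 member with the CA score. Prkaa1 combined was 0.12 with no filter (adjusted p = 0.091) and 0.12 without both libraries. The Camkk1 interaction in M was -0.51 (no filter), -0.32 (outside share), -0.33 (CA score), -0.47 (neuron score) and -0.52 (without both).

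Leaving out single libraries gave 0 to 2 members called with vehicle and 1 to 3 under CP2. The ranges were 0.25 to 0.33 for Prkab1 and -0.62 to -0.44 for Camkk2 with vehicle, -0.60 to -0.40 for Camkk2 under CP2, 0.11 to 0.14 for combined Prkaa1, -0.63 to -0.43 for the Camkk1 interaction and -0.49 to -0.38 for the CP2 ratio of Prkab2 to Prkab1. The Prkaa1 call was lost without KO CP2 F L216, KO vehicle F L246, WT CP2 F L228 or L240, WT vehicle F L252 or L295, KO CP2 M L266, L291 or L298, KO vehicle M L310 or L319, WT CP2 M L262 or L263, or WT vehicle M L285, L300 or L303.

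Genes called with vehicle, 1708, became 2.9e+02 with the outside share as a covariate and 729 to 2169 by single omissions (729 without KO vehicle M L322, 892 and 938 without WT vehicle M L300 and L285). For CP2 in KO, 1002 became 159 (contrast's groups), 0 (outside share), 51 (title number), 633 (additive), 526 (without both) and 1580 (DESeq2), and 190 to 1534 by omissions (190 without KO vehicle M L322, 578 without KO vehicle F L281, 622 without KO CP2 M L266, 1534 without KO CP2 F L201). For the interaction, 183 became 0 (outside share), 99 (title number), 0 (additive), 360 (neuron score), 33 (without both) and 582 (DESeq2), and 0 to 435 by omissions. The cause was not tested.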

Other observations

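The gene second most like Prkaa1 over libraries, Slc6a5, had a mean of 7.34 CPM. It was called higher in KO under CP2, with a log2 fold change of 3.43 (SE 0.96, edgeR, adjusted p = 0.0186). With vehicle its value was 0.49 (SE 1.04, adjusted p = 0.839), and the combined contrast did not call it (adjusted p = 0.057, edgeR). Prkaa1 itself was not called under CP2 (0.15, adjusted p = 0.081, edgeR). Whether a few libraries or 1 letter carried the Slc6a5 difference was not tested. Among the marker lists, Wfs1, known from dorsal hippocampal CA neurons, rose in KO with vehicle (0.56, adjusted p = 0.0081) and under CP2 (0.51, adjusted p = 0.0029, edgeR), alone among 5 CA markers. Of all genes, 2.87% were called higher with vehicle and 5.54% under CP2. Of 5 microglia markers, P2ry12 (0.40, adjusted p = 0.0011) and Csf1r (0.20, adjusted p = 0.027, edgeR) rose in KO under CP2, beside that 5.54% of all genes. Tmem119 fell by 0.34 in KO with vehicle (adjusted p = 0.028, edgeR), where 3.8% of all genes were called lower. Of 4 red cell markers, 3 fell in KO with vehicle, against the same 3.8% of all genes. These were Hbb-bt by 2.42 (adjusted p = 0.0040, edgeR), Hbb-bs by 1.97 and Hba-a1 by 1.90. Under CP2, 0 were called against 11.6% of all genes, and 0 had an unadjusted p below 0.05 against 24.9%. The summed red cell markers ran from 37.4 to 84.0 CPM in KO vehicle M and from 111.1 to 621.5 CPM in WT vehicle M, and from 70.8 to 123.5 CPM in KO vehicle F and 81.7 to 370.0 CPM in WT vehicle F, where the genotypes overlapped.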
